A study of Mus musculus with 4 samples.

Results

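The peaks described here are those of an ELF1 chromatin immunoprecipitation (ChIP-seq) experiment that fell in exons or untranslated regions (UTRs) of genes, away from promoters. They were chosen by position alone: on chromosomes 1 to 19, a peak was kept if the authors annotated it to an exon, a 5′ UTR or a 3′ UTR of any gene and to no promoter. This gave 115 of 5288 peaks in wild-type (WT) cells and 105 of 5117 in Elf1 knockout (KO) cells, or 220 of the 11085 peaks in both complete lists. All cells were macrophages grown from mouse bone marrow and given lipopolysaccharide (LPS), the bacterial cell wall component, for 6 h to obtain the inflammatory state called M1. Each genotype gave 1 immunoprecipitated (IP) library, made with an ELF1 antibody, and 1 input library of sheared chromatin. By their labels, the WT and KO groups share tissue, culture, stimulus and antibody and differ in the Elf1 gene. Their complete lists also differed on the sex chromosomes, with 133 WT and 8 KO peaks on Y and 97 and 434 on X. Any further difference between the sources of the cells cannot be told apart from genotype. The labels give no strain, sex, number of mice or design of the Elf1 allele, so whether 1 animal or a pool stands behind each library is unknown. Because neither genotype was replicated, no difference between WT and KO has a test, and every interval below covers counting error only.

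ELF1 is a transcription factor of the ETS family, a group that binds DNA around a GGAA core, and it is known for its work at promoters in blood cells. An exon is the part of a gene kept in the mature RNA. The coding sequence specifies the protein, while the UTRs on either side of it act in translation and RNA stability. A ChIP peak is a place where the IP library has more fragments than its local background, and cells that lack the antibody's target show which peaks arise without it. Neither list measures ELF1 RNA or protein, and the genotype is known from the labels alone. No exon or UTR peak lay in Elf1 itself in either list.

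The sequences that bear on ELF1 are those holding an ETS site, and these were few. A site was taken as AGGAAGT or CGGAAGT on either strand within 100 bp of the summit, the position of the highest pileup in a peak. It occurred in 9 of 115 WT peaks (7.83%, exact 95% interval 3.64 to 14.3), where 5.58% of all WT peaks on these chromosomes held one. It occurred in 2 of 105 KO peaks (1.90%, 0.232 to 6.71), where the share of all KO peaks was 5.12%. Both intervals include the share of their whole list. The shares moved with the window: within 50 bp of the summit they were 2.61% in WT and 0.952% in KO, and over the whole peak 10.4% and 7.62%. The site was AGGAAGT in 8 WT peaks and both KO peaks, and CGGAAGT in 1 WT peak, in Scai. The 8 base form CCGGAAGT was found in 0 of the 115 and 0 of the 105, against 7 peaks in the whole WT list and 3 in the whole KO list. The bare core GGAA was common everywhere, in 85.2% of WT exon and UTR peaks against 86.5% of all WT peaks, and in 88.6% against 88.7% in KO. The following 30 base windows, from the GRCm38 reference and written 5′ to 3′ on the strand of the match, show the site in capitals for 5 WT peaks and then both KO peaks.
Scai (WT, chr2:39071396-39071425, plus strand): tgtgtctgattCGGAAGTctgagctggact
Trim55 (WT, chr3:19671054-19671083, plus strand): gaactcttatcAGGAAGTattccgatcacc
Fnbp1l (WT, chr3:122547000-122547029, minus strand): atgggggatccAGGAAGTctgcagcctaaa
Vmn1r-ps78 (WT, chr7:22006956-22006985, minus strand): gaaaaccactgAGGAAGTggctcttcagat
Wdr11 (WT, chr7:129607798-129607827, plus strand): ctccattctgcAGGAAGTgcacctcaagtt
Olfr1294 (KO, chr2:111537625-111537654, plus strand): aatatatgtgtAGGAAGTaagcaacagaat
Gm37941 (KO, chr9:86785609-86785638, minus strand): ggtgggatcctAGGAAGTtaagtcaagggc

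The 11 peaks with a site had between 5 and 9 fragments. Trim55, a muscle ubiquitin ligase, had 9 fragments and a fold of 3.96. Wdr11, a WD-repeat protein, had 7 fragments and a fold of 3.67. Fnbp1l, a regulator of actin at membranes, had 5 fragments and a fold of 2.90, as did the Scai peak with CGGAAGT at 5 fragments and a fold of 3.00. In the KO list Olfr1294, an olfactory receptor, had 7 fragments and a fold of 3.82 with the site 19 bp from its summit. Further WT sites lay in Gm28867, Gm47578 and Gm8796, which are non-coding gene models. No peak in this set of 11 reached a q of 0.05, the authors' p adjusted for multiple testing.

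Peaks with high values can be set beside these. The windows below are centred on summits and read on the plus strand. They show the WT peaks of Gm29687 and Vmn1r215 and the KO peak of Gm48558, for their high folds, and Gm10800, for its high pileup at a low fold and a summit at the same base in both lists. Capitals mark GGAA or its reverse complement TTCC, which only the last of these short windows holds. Within 100 bp of the summit, the Gm29687, Vmn1r215 and Gm48558 peaks held this core as well.
Gm29687 (WT, chr12:26130246-26130275): actggatactcacctccttgaggcattttt
Vmn1r215 (WT, chr13:23075874-23075903): taaggcatatatacatgcctgccttgggga
Gm48558 (KO, chr12:15843308-15843337): gcatgcccagaggcatatctcccagggcat
Gm10800 (WT and KO, chr2:98666760-98666789): cactgtaggacgtGGAAtattgcaagaaaa

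Exon and UTR peaks were a small and similar part of both lists. They made up 2.17% of the WT list (1.80 to 2.60) and 2.05% of the KO list (1.68 to 2.48). The summit of each of the 220 lay in an exon of the GENCODE M21 annotation. Counting every peak whose summit lay in such an exon, promoter peaks included, gave 179 WT peaks (3.39%, 2.91 to 3.91) and 159 KO peaks (3.11%, 2.65 to 3.62). Exons make up 5.10% of the bases of chromosomes 1 to 19, more than either share. The authors listed no exon for 51 of the 179 and 42 of the 159, of which 46 and 33 were annotated as intron, so their exon set was narrower than GENCODE M21. A further 13 of 128 WT and 12 of 117 KO exon peaks had been left out here because they also had a promoter entry.

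In both genotypes the hosts were mostly protein-coding genes. These held 78 WT peaks (67.8%, 58.5 to 76.2) and 63 KO peaks (60%, 50.0 to 69.4), while coding genes own 75.7% of exon bases. Long non-coding RNA (lncRNA) genes held 15 and 13 peaks, and pseudogenes 12 and 11. Gene models that await experimental evidence (TEC in GENCODE) held 8 WT peaks (6.96%, 3.05 to 13.2) and 17 KO peaks (16.2%, 9.72 to 24.7), beside 5.48% of exon bases. Base shares are those of GENCODE M21, while the peaks were chosen by the authors' narrower exon set. Of the non-coding hosts, 17 of 37 in WT and 20 of 42 in KO lay inside an intron of another gene. Gm48161 within Agtr1a, the angiotensin II receptor gene, is a WT example, and Gm43888 within Cntnap2, a neuronal adhesion gene, is a KO example.

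**Figure D1:**
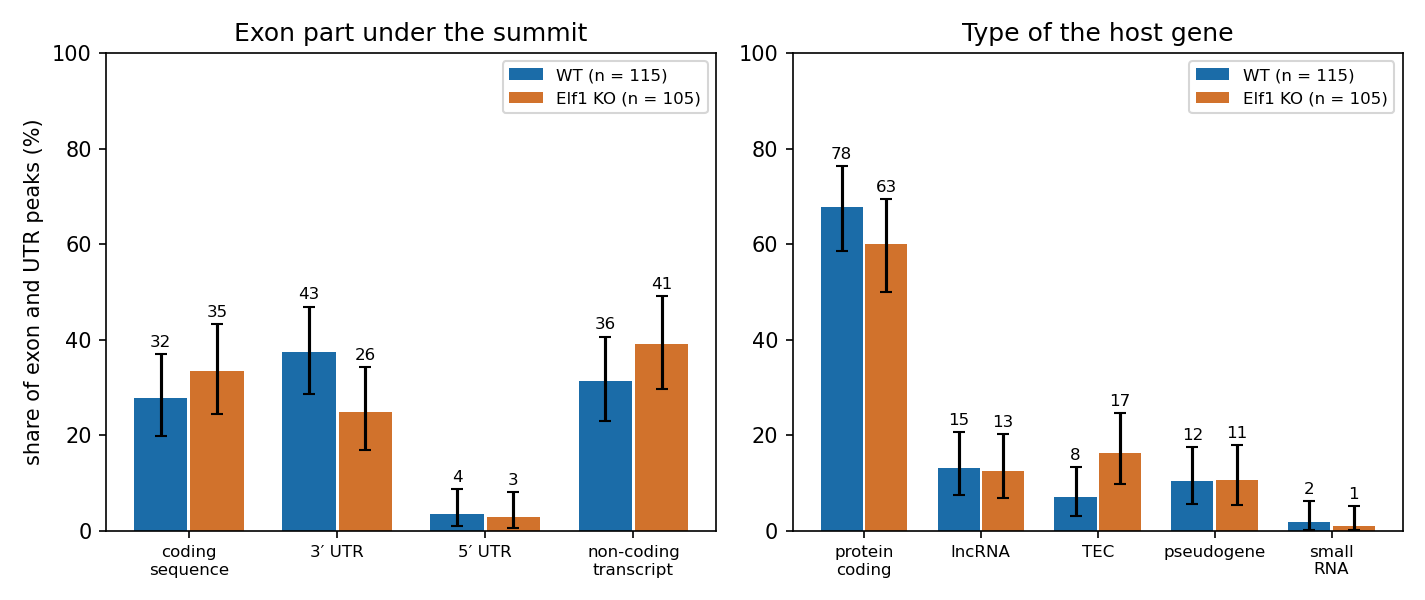
Share (%) of the 115 WT and 105 Elf1 KO exon and UTR peaks by the exon part under the summit (left) and by the type of the host gene (right); bars are shares, whiskers exact 95% intervals for counting error and numbers the peaks. The 3′ UTR bar is higher in WT (43 peaks against 26) and the TEC bar in KO (17 against 8), with whiskers that overlap in both cases.

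The 3′ UTR was the class in which the lists differed most in number. A 3′ UTR entry was present in 44 WT peaks (38.3%, 29.4 to 47.8) and 26 KO peaks (24.8%, 16.9 to 34.1), and an exon entry with no UTR in 67 (58.3%) and 77 (73.3%). The intervals overlap, and no replicate was available to test the difference. By the base under the summit, coding sequence took 32 WT and 35 KO peaks, 3′ UTR 43 and 26, 5′ UTR 4 and 3, and exons of non-coding transcripts 36 and 41. Over all exon bases the shares are 28.6% coding, 26.3% 3′ UTR, 5.52% 5′ UTR and 39.6% other. The WT share of summits in 3′ UTRs (37.4%, 28.5 to 46.9) lay above its share of bases and the KO share (24.8%) near it. Among the 179 and 159 peaks with a summit in any GENCODE exon, the 3′ UTR share was 30.2% (23.5 to 37.5) for WT and 22.01% (15.8 to 29.3) for KO, and both intervals include the share of bases.

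The WT 3′ UTR peaks included genes of varied roles. Hivep3, a zinc-finger regulator of bone formation, had the tallest of them by fold, at chromosome 4, 120137605 to 120137820, in the last of 9 exons, with 9 fragments, a fold of 4.999 and a q of 0.0111. Neurod4, a neuronal bHLH factor, had 8 fragments and a fold of 4.50 in its second and last exon. Scai, a cofactor that restrains MRTF-driven transcription, held 2 WT peaks in its last exon of 8943 bp, with 8 and 5 fragments and folds of 4.50 and 3.00, their summits 2.72 kb apart. Cnot6l, a deadenylase of the CCR4-NOT complex, had 8 fragments and a fold of 4.29.

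Other 3′ UTR hosts are named here for what they encode, after their values were seen. In WT, Egfr, the EGF receptor, and Msx2, a homeobox factor, each had 7 fragments and a fold of 4.00. Hif1a, the oxygen-regulated subunit of HIF1, had 6 fragments and a fold of 3.43. In KO, Stk4, the Hippo kinase MST1, had 7 fragments and a fold of 3.90, and Hmgb2, a chromatin protein, had 6 and 3.41. Tnfsf8, which encodes CD30 ligand, had 6 fragments and a fold of 2.83, and Bdnf, a neurotrophin, had 5 and 2.93. The tallest KO peak in a 3′ UTR was that of Dcdc2c, a doublecortin-domain gene, with 8 fragments and a fold of 3.96. None of these KO peaks had a q under 0.05.

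Peaks in the 5′ UTR were few, and leaving out promoter peaks can lower their number by rule. Among all peaks with a summit in a GENCODE exon, promoter peaks included, 8 of 179 WT (4.47%) had it in a 5′ UTR. In KO 6 of 159 did (3.77%), and 5′ UTRs make up 5.52% of exon bases. By the authors' entries and without promoter peaks, the 4 WT ones lay in Phf11c (6 fragments, fold 3.50), Olfr1174-ps (6, 3.50), Tmco4 (6, 3.48) and Olfr1184 (6, 3.41). The 2 KO peaks with such an entry lay in Vmn2r2, a vomeronasal receptor (6, 3.42), and Olfr17, an olfactory receptor (5, 2.88). Each was at the common level of its list, and 4 of the 6 were olfactory or vomeronasal receptor loci. The share of these families among 5′ UTR bases was not computed.

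Among peaks with the summit in coding sequence, the tallest WT peak by fold was Vmn1r215, a pheromone receptor gene (chromosome 13, 23075787 to 23076051). It had 9 fragments, a fold of 4.999 and a q of 0.0111. Lrp1b, a very long member of the LDL receptor family, had 8 fragments and a fold of 4.50 in exon 17 of 91. Only 38.2% of that peak lay in exons of Lrp1b. Suz12, a core subunit of the Polycomb complex PRC2, had 7 fragments and a fold of 4.00. In KO, Gfpt1, which catalyses the first step of hexosamine synthesis, and Kpna4, a nuclear import receptor, each had 8 fragments and a fold of 4.39. Outside the coding hosts, Mmp1a, an interstitial collagenase that GENCODE lists among pseudogenes, had the same 8 fragments and 4.39. Over all 105 KO peaks, 17 shared 7 fragments and a fold of 3.90. Dsp, the desmosomal plaque protein, and Zfp78, a zinc-finger gene, are among them.

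Summits in coding hosts lay more often in the last exon than in the first. Peaks with a promoter entry had been left out, which can lower counts at gene starts. The shares of first and last exons among exon bases were not computed. Of the coding hosts, the summit lay in the last exon in 45 of 78 for WT (57.7%, 46.0 to 68.8) and 36 of 63 for KO (57.1%, 44.0 to 69.5), and in the first of several exons in 4 and 4. The exon under a 3′ UTR peak was long, with a median of 3420 bp in WT and 2999 bp in KO, against 193 and 273 bp for other exons of coding genes. Most peaks were wider than a typical inner exon, and 74 of 115 WT and 68 of 105 KO peaks lay wholly inside exons of their host. The others ran into an intron or past the end of the gene. Dsp, for instance, has a peak of 252 bp over an exon of 51 bp. The host was also the gene with the nearest transcription start site in 69 WT and 69 KO peaks, and 27 and 28 peaks lay within 1000 bp of some start site without having a promoter entry.

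**Figure D2:**
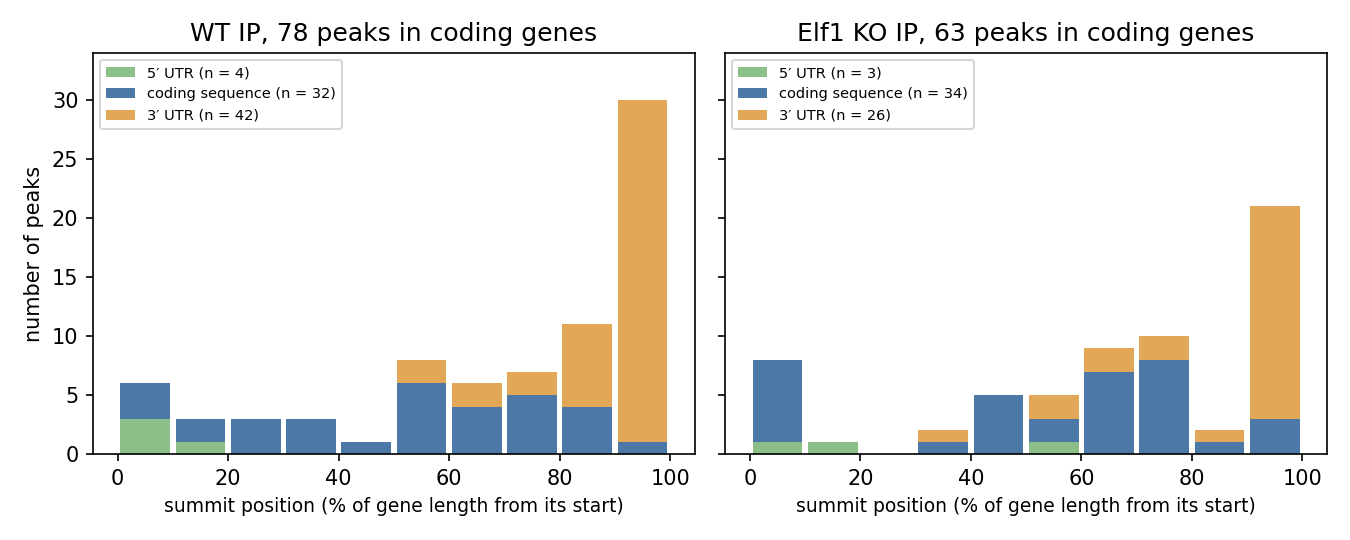
Number of exon and UTR peaks of protein-coding hosts (WT 78, Elf1 KO 63) in 10 equal bins of the gene from its start to its end (summit position in % of gene length), coloured by the exon part under the summit. The last bin holds 30 WT and 21 KO peaks, most of them in 3′ UTRs, and the first bin 6 and 8. Peaks with a promoter entry were left out, which can lower counts near the gene start.

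Sensory receptor genes were a recurrent host in both genotypes. Olfactory and vomeronasal receptors, the odour and pheromone detectors of nasal neurons, are large families of similar genes in clusters. They held 20 WT peaks (17.4%, 10.96 to 25.6), of which 11 were olfactory and 9 vomeronasal. They held 16 KO peaks (15.2%, 8.97 to 23.6), of which 12 were olfactory and 4 vomeronasal. These families own 3.17% and 1.69% of exon bases in GENCODE M21, and the authors' exon set was narrower. The receptor share was not computed over all peaks, nor over all peaks with a summit in a GENCODE exon. No receptor gene was a host in both lists, but over all host genes only 4 of 215 were. The absence is thus not particular to receptors. Zinc-finger genes of the Zfp, Zkscan and Zscan type, another clustered family, held 2 WT and 4 KO peaks and own 1.74% of exon bases.

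Within the receptor families the WT peaks ranged from 5 to 9 fragments. Vmn1r215 was the highest, followed by 8 fragments in Olfr731 (fold 4.41) and Olfr123 (fold 4.39), both in the 3′ UTR. The tallest KO receptor peak was Olfr1493-ps1 with 8 fragments and a fold of 3.87. Receptor peaks had a median GC content of 33.4% in WT (30.2 to 42.3) and 39.5% in KO (35.5 to 41.1). Both intervals include the median of all exon and UTR peaks of the list, 37.1% in WT and 40.5% in KO. The GC content was 39.2% over all olfactory and 38.7% over all vomeronasal exon bases. Receptor peaks had a modest share of repeat bases, with medians of 18.5% and 10.1% soft-masked. How far similarity between receptor copies affected the mapping of reads was not tested.

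Genes of macrophage biology and of other cell types were looked up among the hosts. Of 240 distinct genes in 13 lists covering LPS and NF-kB signalling, inflammatory effectors, the interferon response, macrophage lineage, described ELF1 targets, the ETS family and markers of other cell types, 2 had a WT exon or UTR peak and 0 had a KO one. Over all 51229 genes of these chromosomes, 0.223% hosted a WT and 0.205% a KO peak, counting 1 host for each peak, and counts of 2 and 0 are too small to be set apart from these shares. Stat6, the transcription factor of IL-4 signalling and 1 of 20 alternative activation genes, had 6 WT fragments and a fold of 3.50 over coding exon 16 (chromosome 10, 127657562 to 127657786). Mcm2, a subunit of the replicative helicase and 1 of 17 described ELF1 targets, had 7 WT fragments and a fold of 4.00 in its 3′ UTR (chromosome 6, 88883350 to 88883561). Neither had a q under 0.05. In the LPS and NF-kB list (0 of 31), the inflammatory effectors (0 of 31), the interferon response (0 of 28) and the macrophage lineage (0 of 24), no gene was a host in either genotype. At these list sizes, a count of 0 cannot be set apart from the share over all genes.

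Peaks in non-coding hosts had between 5 and 11 fragments, with medians near those of the whole lists. The 15 lncRNA peaks of WT had a median of 7 fragments and a median fold of 3.50, with Gm29687 and Gm48161 at the top. The 13 of KO had medians of 6 fragments and 3.42, with Gm48558 and Gm49083 (8 fragments, fold 4.39) at the top. TEC models gave median folds of 3.68 in WT and 3.42 in KO, led by B130021K23Rik in WT (8 fragments, fold 4.31), within an intron of the splicing gene Isy1. Pseudogene peaks had median folds of 3.42 in both lists. The WT pseudogenes included 4 of the receptor families, namely Olfr1273-ps, Vmn1r-ps34, Vmn1r-ps78 and Vmn2r-ps86, and the KO ones included Olfr1147-ps1. The WT list also had a peak of 5 fragments on the 5S ribosomal RNA copy n-R5s154, with a fold of 3.00.

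Some hosts lay close together in regions of duplicated gene models. On chromosome 14 between 5 and 7 Mb, the KO list had 14 peaks, of which 4 were exon or UTR peaks, in Gm8279, Gm3373, Gm3170 and Gm3460, each with 5 or 6 fragments. The WT list had 7 peaks in that interval and 0 in exons. On chromosome 8 between 19 and 21 Mb, 2 of 19 WT peaks were in 3′ UTRs, those of 4930467E23Rik and Gm15319, both with 16 fragments and in exons of 1370 bp. There 1 of 16 KO peaks was in an exon, in Gm31371, with 13 fragments and a fold of 2.81. These chromosome 8 peaks had backgrounds of 2 or more. The intervals were picked after the positions were seen, so the counts are a description, and the multiple mapping of reads between copies was not tested.

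Most of these peaks rested on few fragments. The median pileup was 6 fragments in both genotypes (interval 6 to 7 in each). In WT, 15 peaks had 5 fragments, 51 had 6, 18 had 7, 13 had 8, 11 had 9 and 7 had 10 or more. In KO the counts were 13, 46, 30, 8, 1 and 7. Thus 84.3% of WT peaks had at most 8 fragments, against 90.6% of all WT peaks, and 92.4% of KO peaks, against 88.3% of all KO peaks. The 11 WT peaks with 9 fragments, among them Hivep3, Vmn1r215, Trim55 and Adam23, compare with 1 KO peak of 9 fragments, in the lncRNA D030024E09Rik. At 10 or more fragments the lists were equal, with 7 peaks each. The share of peaks with 9 fragments was not computed over the whole lists. Median width was 229 bp in WT (223 to 240) and 239 bp in KO (225 to 246), and the median of the authors' fold enrichment over input 3.48 (3.43 to 3.50) and 3.42 (3.39 to 3.42).

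The fold was nearly a restatement of the pileup. It equals the pileup plus 1 divided by the local background plus 1, so the background at each peak could be recovered. The lowest background was 1.00 fragments in WT and 1.05 in KO, and 81 of 115 WT and 74 of 105 KO peaks lay within 10% of it. At that floor, 6 fragments give a fold of 3.50 in WT and 3.42 in KO, which is why Stat6, Galnt13 and Trpc1 have one identical WT value, and Tpr, Bbx and Cacnb4 one identical KO value. A background of 2 or more was found at 8 WT and 6 KO peaks. They included the highest pileups of both lists, at low folds. Gm21083 had 30 WT fragments, a fold of 2.87 and a background of 9.79, and Tmem267, a transmembrane protein gene, had 29 KO fragments, a fold of 1.81 and a background of 15.6.

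**Figure D3:**
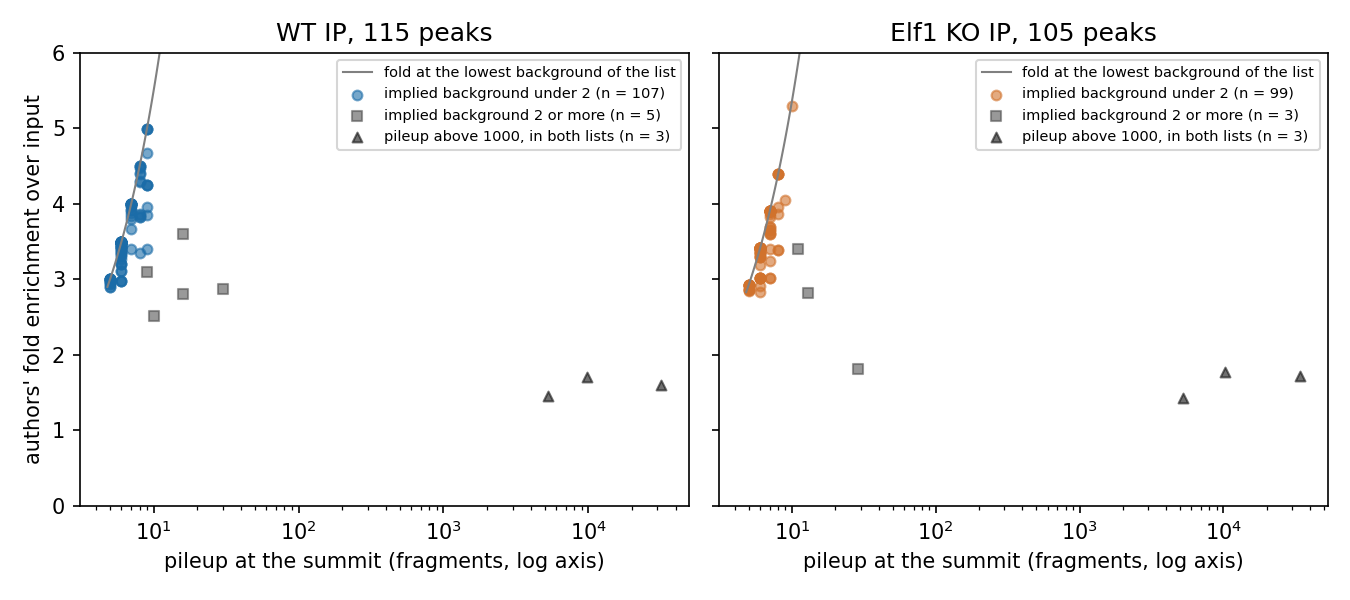
Authors' fold enrichment over input against the pileup at the summit (fragments, log axis) for each WT (left) and Elf1 KO (right) exon or UTR peak; the line is the fold at the lowest background of each list. Most peaks sit on or just under the line at 5 to 9 fragments, the squares have a background of 2 or more, and the 3 triangles at over 1000 fragments have folds between 1.43 and 1.77.

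Few peaks passed a q of 0.05: 9 in WT (7.83%, 3.64 to 14.3; 5.16% of all WT peaks) and 4 in KO (3.81%, 1.05 to 9.47; 5.73% of all KO peaks). Both intervals include the share of their list. In WT, Hivep3, Vmn1r215 and the lncRNA Gm29687 had equal values of 9 fragments and a fold of 4.999, and the lncRNA Gm48161 had 9 and 4.67. The Gm48161 peak was 100% soft-masked as repeat. The other WT peaks were Gm21083, 4930467E23Rik (16 fragments, fold 3.61, background 3.71) and Gm10800, Gm10801 and Gm11168. In KO they were the lncRNA Gm48558, with 10 fragments, a fold of 5.29 and a q of 0.00249 (chromosome 12, 15843165 to 15843478), and the same Gm10800, Gm10801 and Gm11168. Without peaks at a background of 2 or more, 4 WT peaks and 1 KO peak remained, a filter added after the data were seen.

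The lists shared exon and UTR peaks at these last 3 genes alone. A peak of the other genotype overlapped 3 of 115 WT peaks, where 1.04% of all WT peaks were overlapped, and 3 of 105 KO peaks, where the share was 1.07%. Gm10800, Gm10801 and Gm11168 are gene models over satellite repeats, the tandem DNA of mouse centromeres, and 97.6% to 100% of each peak was soft-masked. Gm10800 (chromosome 2) had 31738 WT fragments with a fold of 1.60 and 34053 KO fragments with a fold of 1.72, with the summit at the same base. Gm10801 (chromosome 2) had 5306 fragments and a fold of 1.46 in WT, and 5234 and 1.43 in KO, again with 1 summit. Gm11168 (chromosome 9) had 9852 fragments and a fold of 1.71 in WT, and 10195 and 1.77 in KO. Their backgrounds ran from 3633 to 19821 fragments. Signal at these loci was present in both genotypes at close values.

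Elsewhere the lists did not meet. The median distance from an exon or UTR peak to the nearest peak of any class in the other list was 172 kb from WT and 134 kb from KO. The same distance was not computed over all peaks, so these values do not set exon and UTR peaks apart. Within 1000 bp lay an intronic KO peak of Olfr1012, 588 bp from its WT exon peak (6 fragments, fold 3.50), and an intronic WT peak of Tmc3, a channel-like gene, 318 bp from its KO exon peak (7 fragments, fold 3.90). By gene, 114 genes hosted a WT and 105 a KO peak, and 4 of the 215 hosted both: the 3 satellite models and Adam23, a neuronal adhesion protein. In Adam23 the sites differed: the WT peak lay in the 3′ UTR (9 fragments, fold 3.85), the KO peak in coding exon 4 (7 fragments, fold 3.24), 80.3 kb apart. Hivep3, Vmn1r215, Stat6, Mcm2, Gfpt1 and Kpna4 were each hosts in 1 list only. At this pileup, a site can be absent from a list for want of 1 or 2 fragments, and absence of a peak was not tested as a loss of signal.

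Exon and UTR peaks were less GC-rich than exons. Median GC content was 37.1% in WT (35.9 to 40.1) and 40.5% in KO (39.1 to 42.2), where all exon bases have 47.0% and all bases of these chromosomes 41.9%. The values were close to those of intron peaks (37.6% and 39.5%) and intergenic peaks (36.7% and 38.7%) in the same list. The 3′ UTR peaks were lowest, at 31.9% in WT (30.2 to 36) and 37.9% in KO (33.8 to 41.3), against 43.0% for 3′ UTR bases. Other exons of coding genes gave 41.6% and 40.8%, against 51.9% for coding sequence. Olfr123 had the lowest value in WT, 21.95%, and Vat1l, a gene of the quinone oxidoreductase family, the highest in KO, 65.7%, in its first exon. Intron and intergenic peaks were likewise lower in WT than in KO. The median share of soft-masked repeat bases was 13.2% in WT and 11.2% in KO, against 19.9% in introns of both lists and 23.6% and 26.3% between genes.

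**Figure D4:**
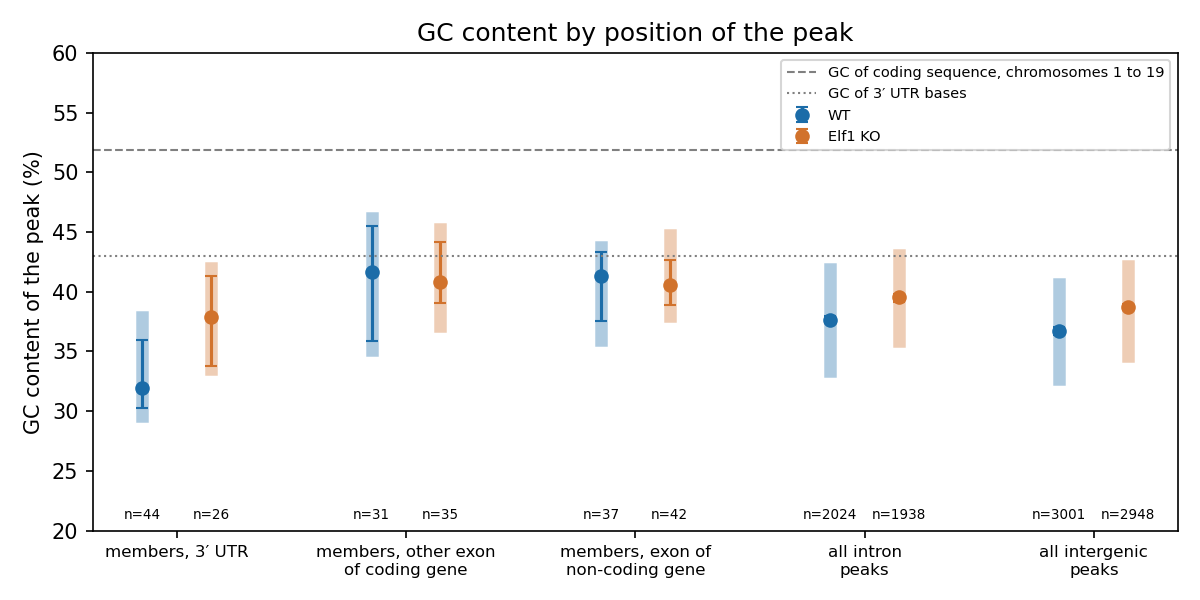
GC content (%) of peaks by position, for WT (left of each pair) and Elf1 KO (right): points are medians, whiskers exact 95% intervals of the median, pale bars the quartiles; lines mark the GC of coding sequence (dashed) and 3′ UTR bases (dotted) on chromosomes 1 to 19. The 3′ UTR peaks have the lowest medians, 31.9% in WT and 37.9% in KO, with the KO interval and the WT interval both under the dotted line.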

How the data were processed

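ELF1 ChIP-seq was deposited as 1 peak list per IP library, each called against the input of its genotype as the lists are named. Per the series' design text, the authors used Trimmomatic 0.36, Bowtie2 on GRCm38 and SAMtools rmdup; the sources used here do not name the peak caller or its threshold. The deposited columns, per the file headers, are a pileup signal in fragments at the summit, a fold enrichment ratio, and −log10 p and −log10 q values. These authors' values served for description, ranking and filtering inside each list. Library totals are not in the lists, so depth is unknown.

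Exon parts, gene types and base shares came from GENCODE M21 and sequence and soft-masking from the GRCm38 reference, in 1-based coordinates. The host genes named by all 220 peaks were found there. The exon number comes from the transcript with the longest coding sequence whose exon holds the summit. Shares carry exact Clopper-Pearson and medians exact order-statistic 95% intervals. The motif window was 201 bp. Overlap meant at least 1 bp. Computation used Python 3.11.15, pandas 2.3.3, SciPy 1.17.1 and pysam 0.24.0, with the scripts tested on simulated data.

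Members and gene lists were chosen with earlier results of these data known. Named genes were those with q below 0.05, the 10 highest folds and 5 highest pileups per list, 5′ UTR hosts, overlapped peaks, genes in both lists and listed genes; 1 WT peak that this rule names, among the 10 highest folds and with a motif match, is not reported here. Predicted gene models among them, hosts of motif matches and examples were named after their values were seen. Alternatives changed the chromosomes, promoter rule, exon definition, q, repeats, overlap distance and motif window.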

Additional observations from a re-analysis of the deposited data

Results flagged for a closer look

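Exon and UTR peaks outside chromosomes 1 to 19 were not part of the counts above. On the Y chromosome the WT list had 4 such peaks of 133 and the KO list 0 of 8, with WT folds of 3.00 to 3.97. On the mitochondrial genome 7 of 8 WT peaks had an exon entry, but 1 of the 7 was without a promoter entry as the rule asks; their folds were 1.25 to 1.62, and 1 had a q below 0.05. The KO list had 0 mitochondrial peaks. On the X chromosome there were 1 WT peak of 97 and 5 KO peaks of 434. The labels do not give the sex of the mice, and no cause was tested.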

How the results depend on the processing

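Of 42 alternative values over 22 results, 30 stayed within the limits set for a move (1.5 times for a count, the interval for a value), 12 moved and 0 reversed; 6 alternatives were added after the data were seen. With only peaks of q below 0.05, 9 WT and 4 KO exon and UTR peaks were left, or 3.30% and 1.37% of such peaks. With the summit in any GENCODE exon and no promoter entry, the shares rose to 3.10% in WT and 2.78% in KO. Peaks passing q rose to 20 in WT and 8 in KO at a q of 0.1, and dropped to 4 and 1 without backgrounds of 2 or more. The ETS site share was 2.61% in WT and 0.952% in KO within 50 bp of the summit, and 10.4% and 7.62% over the whole peak. The windows overlap and scan the same peaks, so their agreement adds no support for a difference between the lists. Medians of pileup, width, fold and GC content stayed within their intervals without repeat peaks or with another window. No paired analysis was possible because each group has 1 library, and for the same reason no replicate could be left out. Depth is unknown, so a site with no peak may be short of the list by few fragments.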
